A study of Mus musculus with 12 samples.

Results

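Of 24062 genes counted in mouse cortex, 9 genes of nuclear RNA bodies and of RNA-binding protein disease were taken by their symbols. The 9 genes are the nuclear long noncoding RNAs (lncRNAs) Neat1 and Malat1, the paraspeckle proteins Nono, Sfpq and Pspc1, the FET proteins Ewsr1 and Taf15, and the RNA-binding proteins Tardbp and Matr3. All 9 were found, and all 9 passed the filter on low counts that left 15440 genes for testing. The study sequenced total RNA from the cortex of mice aged 9 months, with 3 libraries in each of 4 groups, to ask how P301S tau and loss of 1 Tia1 copy act on the transcriptome. PS19 mice carried a human MAPT transgene with the P301S mutation, driven by the Prnp promoter, with both Tia1 copies intact. P301S Tia1+/- mice carried the same transgene with 1 knockout allele of Tia1, Tia1+/- mice carried that knockout allele without the transgene, and WT mice carried neither. The mice came from crosses of PS19 with Tia1 knockout animals, and animals with end-stage motor symptoms were left out by the authors. Tia1 encodes a stress granule protein, and PS19 mice are a model of tauopathy in which neurons express the transgene under a promoter that is active in most brain cells.

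Paraspeckles are nuclear bodies that form on the long form of Neat1, to which NONO, SFPQ and PSPC1 bind as dimers of a shared protein family (DBHS). The proteins EWSR1 and TAF15 belong to the FET family, and together with TDP-43, the product of Tardbp, and matrin 3, the product of Matr3, they are RNA-binding proteins with disordered regions whose genes have been studied in amyotrophic lateral sclerosis (ALS) and frontotemporal dementia (FTD). Malat1 marks nuclear speckles, where splicing factors are stored, and it is among the most abundant noncoding RNAs of neurons. RNA levels in whole tissue do not show where a protein is or whether a nuclear body forms.

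A stretch near the 3′ end of Malat1 and the last bases of the long Neat1 transcript are shown because they are what the 2 lncRNAs share in sequence and what lets both persist without a poly(A) tail. Each is known to fold into a triple helix of U-rich stretches with an A-rich tract, and the library kit used total RNA, which did not select for such a tail. Both are on the minus strand of GRCm38 in GENCODE M21 transcripts, and capitals mark TTTTGCT, a core of the U-rich stretch, and AAAGCAA, a core of the A-rich tract, searched on the transcript strand.
Malat1, chr19:5795964-5796047: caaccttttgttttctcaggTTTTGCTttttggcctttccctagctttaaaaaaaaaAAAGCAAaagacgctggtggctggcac
Neat1, chr19:5824708-5824780: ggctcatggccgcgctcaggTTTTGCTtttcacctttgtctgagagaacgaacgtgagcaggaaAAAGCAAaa
Each word occurred once in the last 500 bases of either transcript, and in the whole transcripts TTTTGCT occurred 3 times in Malat1 and 6 times in Neat1. The annotated Malat1 transcript runs on for 294 bases after the A-rich word, and that of Neat1 for 2. The Malat1 gene lies at chr19:5795690-5802672 and the Neat1 gene at chr19:5824708-5845478, with 22035 bases between them. For each gene, the exons of its 4 annotated transcripts merge into 1 block. The annotation gives Neat1 a long transcript of 20771 bases and shorter ones of 3004, 1030 and 711 bases. The one of 3004 bases matches the long one for 552 bases from base 3 and then differs, so it is not an unbroken first part of it. Counts per gene do not separate these forms, so every Neat1 value below is a sum over them.

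The counts summed to between 11978962 and 19146484 per library. Groups follow the library titles. For 2 groups, Tia1+/- and P301S Tia1+/-, the genotype field and the title disagree in the labels, each field giving the genotype of the other group, and if the fields were right the values of these groups would be exchanged. Tia1 itself had 82.0 ± 10.3 CPM (SD, n = 3) in WT and 73.5 ± 3.87 CPM in PS19. It had 68.0 ± 10.3 CPM in Tia1+/- and 74.7 ± 2.76 CPM in P301S Tia1+/-, so Tia1 RNA was not lower in the latter than in PS19. The paper describes the mutant Tia1 allele as frame shifted and without a TIA1 protein product. Whether that allele still gives RNA that is counted was not tested. CPM values are counts divided by the TMM-scaled total of their library. Mapt had means of 346 and 434 CPM in WT and Tia1+/- against 453 and 349 CPM in PS19 and P301S Tia1+/-. Every PS19 library lay above every WT library for both genes. Mapt was 439 to 462 against 256 to 413 CPM, and Prnp 2018 to 2158 against 1334 to 1879 CPM. The P301S Tia1+/- libraries did not lie above all of WT (Mapt 336 to 357 CPM, Prnp 1404 to 1535 CPM). By Mapt mean, Tia1+/- was nearer to PS19 and P301S Tia1+/- to WT, the order the genotype fields would give. The Tia1+/- libraries, at 344 to 502 CPM for Mapt, overlapped with each other group, however. Prnp means of Tia1+/- and P301S Tia1+/- were 1527 and 1480 CPM, both below the WT mean of 1638 CPM. The Tia1+/- libraries ran from 996 to 1922 CPM for Prnp. Which label is right was not tested. The study's methods state that only males were used except where noted, but Xist had at most 13 counts in the 6 WT and PS19 libraries and at least 3304 in the 6 libraries of the Tia1+/- and P301S Tia1+/- groups, while 4 Y-linked genes had at least 472 and at most 3 counts, so Tia1 genotype and sex cannot be told apart. The paper reports this pattern as an effect of Tia1 heterozygosity on sexually dimorphic genes, and reports it again by PCR in separate, younger males. That account was not tested here. The summed level of 12 olfactory bulb markers was 1323 CPM in WT replicate 1, 825 to 989 CPM in the 3 P301S Tia1+/- libraries and 15.5 to 196 CPM in the other 8 libraries. A list of 8 striatal markers summed to 1906 CPM in Tia1+/- replicate 3 and to 126 to 305 CPM in the others. Markers of cortical neurons, which summed to 4341 to 6878 CPM, were present in every library. All 7 oligodendrocyte markers had higher means in Tia1+/- than in WT, without overlap of the groups (summed level 3093 to 4068 against 1719 to 2603 CPM), and Cnp among them rose by the edgeR adjusted p. All 7 microglial markers had higher means in PS19 than in WT, 6 of them without overlap (372 to 617 against 304 to 329 CPM). Of 9 immediate early genes, 8 had lower means in PS19 and 8 in Tia1+/- than in WT, and their sum was 284 CPM in PS19 replicate 1 and 362 CPM in Tia1+/- replicate 3 against 653 to 1138 CPM in the other 10 libraries. The part of these tissue differences in the results below was not tested beyond the values given beside them, and in bulk tissue fewer cells of a type cannot be told apart from less RNA per cell.

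None of the 9 genes passed an adjusted p of 0.05 in edgeR's quasi-likelihood test in any of 7 comparisons. Among all 15440 genes this threshold was passed by 0% in PS19 against WT, 0.712% in Tia1+/- against WT, 0.24% in P301S Tia1+/- against PS19, 0% in P301S Tia1+/- against Tia1+/-, 1.31% in P301S Tia1+/- against WT, 0.00648% for the interaction and 0% for P301S tau averaged over both Tia1 genotypes. The interaction is the difference between P301S Tia1+/- and PS19 less that between Tia1+/- and WT, on the log2 scale. At an unadjusted p under 0.05, 2 of the 9 genes passed in PS19 against WT (16.3% of all genes), 2 in Tia1+/- against WT (19.1%), 1 in P301S Tia1+/- against PS19 (19.3%), 4 in P301S Tia1+/- against Tia1+/- (15.6%), 6 in P301S Tia1+/- against WT (18%), 3 for the interaction (22.9%) and 2 for the average over Tia1 genotypes (8.39%). With DESeq2, the tool the study used, adjusted p was under 0.05 for Sfpq in PS19 against WT (2.79% of genes) and in Tia1+/- against WT (6.6%), for Neat1 in P301S Tia1+/- against PS19 (5.31%), against Tia1+/- (2.53%) and for the interaction (7.65%), for Sfpq and Pspc1 in P301S Tia1+/- against WT (6.99%), and for 0 of the 9 genes in the average (0.49%). Groups did not overlap for 2 of the 9 genes in PS19 against WT (20.8% of all genes), 1 in Tia1+/- against WT (20%), 3 in P301S Tia1+/- against PS19 (38.5%), 5 in P301S Tia1+/- against Tia1+/- (26%) and 5 in P301S Tia1+/- against WT (23.2%). These comparisons share groups and are not independent of each other.

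Most of the 9 genes had lower means in each group than in WT. The log2 fold change was below 0 for 8 of 9 in PS19 against WT (51% of all genes), with a median of -0.11 (all genes -0.01). It was below 0 for 7 of 9 in Tia1+/- against WT (49.3%), with a median of -0.14 (all genes 0.01), and for 8 of 9 in P301S Tia1+/- against WT (46.6%), with a median of -0.33 (all genes 0.02). Between the P301S Tia1+/- and PS19 groups 6 of 9 were below 0 (48.5%), and 6 of 9 were below 0 between P301S Tia1+/- and Tia1+/- (48.9%). The interaction was below 0 for 3 of 9 (49.5%), Neat1, Taf15 and Tardbp, and the average over Tia1 genotypes for 8 of 9 (51.3%). Neat1 had a higher mean in PS19 and in Tia1+/- than in WT, Taf15 in Tia1+/- and Nono in P301S Tia1+/-.

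**Figure D1:**
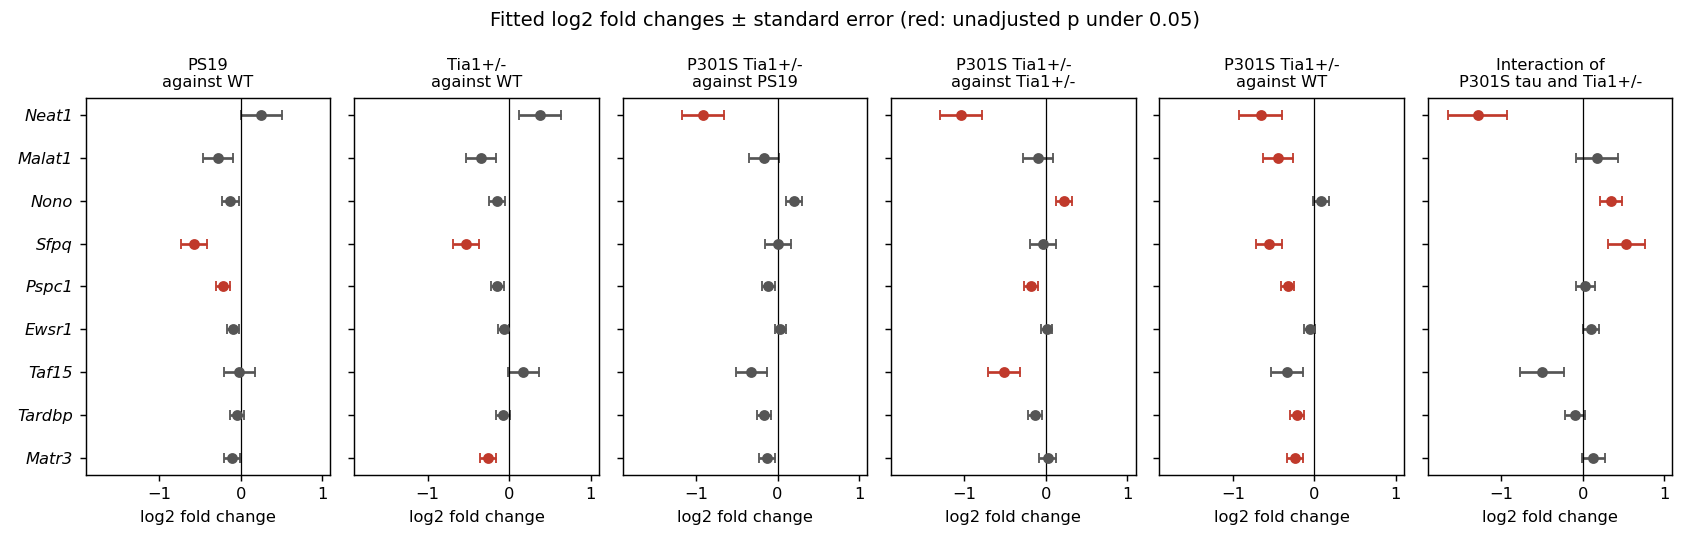
Fitted log2 fold change (x axis, log2 scale) of each of the 9 genes with its standard error in 5 comparisons of groups and in the interaction. Red points have an unadjusted p under 0.05, and the point farthest from 0 is Neat1 in the interaction (-1.29), followed by Neat1 in P301S Tia1+/- against Tia1+/- (-1.04) and against PS19 (-0.91).

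Neat1, the RNA scaffold of paraspeckles, had the widest range of the 9 genes, with a highest level 3.25 times the lowest. Its level was 18.3, 24.7 and 31.9 CPM in the WT libraries, 36.3, 29.0 and 32.0 CPM in Tia1+/-, 37.4, 27.7 and 24.2 CPM in PS19, and 11.5, 14.3 and 21.6 CPM in P301S Tia1+/-. The 3 P301S Tia1+/- libraries were below every PS19 and every Tia1+/- library, and they overlapped with WT replicate 1 alone. The difference was -0.91 ± 0.26 (log2 ± SE; 0.531-fold) for P301S Tia1+/- against PS19, with an edgeR adjusted p of 0.124, and -1.04 ± 0.26 (0.487-fold) against Tia1+/-, with an edgeR adjusted p of 0.178. With DESeq2 the adjusted p values were 0.0198 and 0.0132, and without WT replicate 1, which is in neither comparison but in the shared estimate of spread, those of edgeR were 0.0314 and 0.0287. Against WT the difference was -0.66 ± 0.26 (edgeR adjusted p = 0.206). PS19 differed from WT by 0.25 ± 0.26 and Tia1+/- from WT by 0.38 ± 0.26 (edgeR adjusted p of 0.638 and 0.451). The interaction was -1.29 ± 0.36, with an adjusted p of 0.0888 in edgeR and 0.0161 in DESeq2, so the call depended on the tool, and 0.0375 in edgeR without WT replicate 3. Neat1 was counted with 183 to 719 reads per library, where counting error is at most 7.39%, and its SD within groups was 0.35 on the log2 scale.

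The 4 libraries with a high olfactory bulb level were also the 4 with the lowest Neat1. They held 11.5 to 21.6 CPM, and the other 8 held 24.2 to 37.4 CPM, without overlap. As a covariate, here and below, the bulb level was the mean log2(CPM + 0.5) of the 12 markers in each library, not their summed CPM. With this covariate the differences were -0.35 for P301S Tia1+/- against PS19, -0.56 against Tia1+/- and -0.47 for the interaction. The edgeR adjusted p values were 0.671, 0.419 and 0.695. All 3 P301S Tia1+/- libraries had a high bulb level and no PS19 or Tia1+/- library did, so bulb level and group cannot be told apart in these 2 comparisons.

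Malat1 took between 0.73% and 1.34% of all counts of a library. Its level was 12822, 10818 and 13534 CPM in WT, 7567, 9228 and 12563 CPM in Tia1+/-, 9637, 10177 and 10797 CPM in PS19, and 7811, 9139 and 10415 CPM in P301S Tia1+/-. All 6 libraries with P301S tau lay below the lowest WT library, though PS19 replicate 3 was nearly level with it (10797 against 10818 CPM). Tia1+/- overlapped with WT through replicate 3, the library with a high striatal level. The difference from WT was -0.28 ± 0.18 in PS19, -0.34 ± 0.18 in Tia1+/- and -0.44 ± 0.18 in P301S Tia1+/-, with edgeR adjusted p of 0.464, 0.333 and 0.231. Although Malat1 and Neat1 are neighbours, their levels did not go together across the 12 libraries (r = 0.22, permutation p = 0.497). The ratio of Malat1 to Neat1 counts was 425 to 700 in WT and 258 to 446 in PS19, and it was 208 to 393 in Tia1+/- against 482 to 679 in P301S Tia1+/-. Per kilobase of exon, Malat1 had a mean of 1486 CPM and Neat1 1.24 CPM on the length of its long transcript. On the length of its transcript of 3004 bases, Neat1 had 8.57 CPM.

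**Figure D2:**
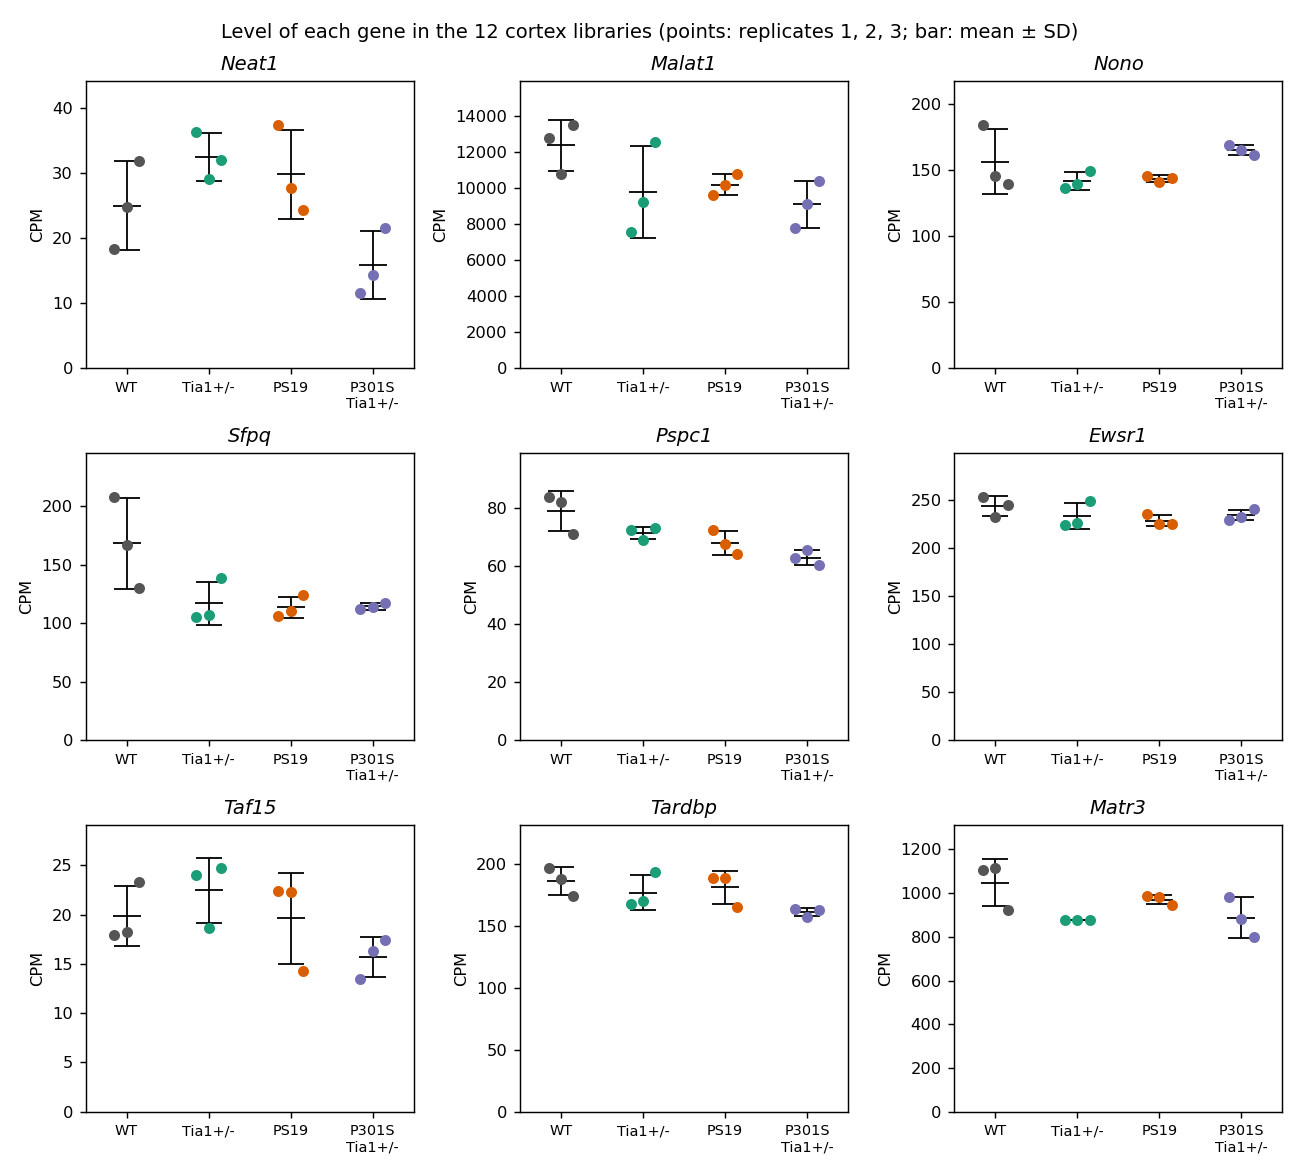
Level of each of the 9 genes in CPM (y axis from 0) in the 4 groups, with a point for each library in the order of replicates 1 to 3 and bars for mean ± SD (n = 3). The P301S Tia1+/- points of Neat1 lie between 11.5 and 21.6 CPM, below all PS19 and Tia1+/- points, and the WT points of Sfpq spread from 130.3 to 208 CPM.

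The DBHS proteins bind Neat1 and also act in transcription, splicing and DNA repair. Nono, at chrX:101429318-101448591 on the plus strand, had levels of 184, 146 and 139 CPM in WT, 136, 139 and 149 CPM in Tia1+/-, 146, 141 and 144 CPM in PS19, and 169, 165 and 162 CPM in P301S Tia1+/-. The 4 libraries with a high bulb level were again apart, at 162 to 184 CPM against 136 to 149 CPM in the other 8. The P301S Tia1+/- libraries were above every PS19 and Tia1+/- library. The difference was 0.20 ± 0.10 against PS19 and 0.22 ± 0.10 against Tia1+/- (edgeR adjusted p of 0.285 and 0.310), and with the bulb level as a covariate the latter was -0.10. Nono is X-linked, and among the 8 libraries with low bulb markers it had 139 to 146 CPM in those without Xist and 136 to 149 CPM in those with it.

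Sfpq, at chr4:127021324-127037013 on the plus strand, was the gene of the 9 with the largest difference between PS19 and WT. Its level was 208, 167 and 130.3 CPM in WT, 105, 107 and 138 CPM in Tia1+/-, 106, 110.4 and 124 CPM in PS19, and 112, 113 and 117 CPM in P301S Tia1+/-. PS19 and P301S Tia1+/- lay below all WT libraries, and Tia1+/- replicate 3 lay above the lowest WT library. The differences from WT were -0.57 ± 0.16 in PS19 (0.674-fold), -0.53 ± 0.16 in Tia1+/- (0.694-fold) and -0.56 ± 0.16 in P301S Tia1+/- (0.678-fold), with edgeR adjusted p of 0.172, 0.112 and 0.0954 and DESeq2 adjusted p of 0.0389, 0.0373 and 0.0185. The means of the other 3 groups lay between 114 and 117 CPM and differed by less than their spread, and the SD in WT was 39.0 CPM. WT replicate 1 carried a large share of these differences, which were -0.38, -0.33 and -0.37 without it. Without WT replicate 3 the edgeR adjusted p was 0.0399 in Tia1+/- and 0.0386 in P301S Tia1+/-. With the bulb level as a covariate the differences were -0.06, -0.14 and -0.79. The ratio of Sfpq to Nono counts, which is free of library size, was 0.937 to 1.14 in WT and 0.731 to 0.862 in PS19, and it was 0.77 to 0.927 in Tia1+/- against 0.664 to 0.726 in P301S Tia1+/-.

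Pspc1, at chr14:56720710-56778316 on the minus strand, was the least abundant of the 3 DBHS genes per kilobase of exon, and its mean was highest in WT. Its level was 83.8, 81.8 and 71.1 CPM in WT, 72.2, 68.8 and 72.9 CPM in Tia1+/-, 72.3, 67.5 and 64.1 CPM in PS19, and 62.6, 65.4 and 60.4 CPM in P301S Tia1+/-. The P301S Tia1+/- libraries were below every WT and every Tia1+/- library. The difference from WT was -0.33 ± 0.08 (0.796-fold), with an edgeR adjusted p of 0.0682, the lowest of any of the 9 genes in any comparison, and a DESeq2 adjusted p of 0.00539. PS19 differed from WT by -0.21 ± 0.08 (edgeR adjusted p = 0.243), and over both Tia1 genotypes the P301S tau groups differed by -0.20 ± 0.06 (edgeR adjusted p = 0.441). In the fit with the bulb level as a covariate, the difference of P301S Tia1+/- from WT was -0.39, with an edgeR adjusted p of 0.0151, and without WT replicate 3 it was -0.41 (edgeR adjusted p = 0.0424).

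The promoters of Sfpq and Pspc1 are shown because these paraspeckle genes had the lowest edgeR p values of the 9 genes in PS19 and in P301S Tia1+/- against WT. In Tia1+/- against WT, Sfpq had the lowest and Matr3 the next. Each is the 250 bases before the start of the gene in RefSeq, on GRCm38.p6, and capitals mark CCAAT (the CCAAT box, read as ATTGG on the other strand) in Sfpq and TGCGCA (a core of the sites of the factor NRF1, the same on both strands) in Pspc1.
Sfpq, chr4:127021051-127021300, plus strand: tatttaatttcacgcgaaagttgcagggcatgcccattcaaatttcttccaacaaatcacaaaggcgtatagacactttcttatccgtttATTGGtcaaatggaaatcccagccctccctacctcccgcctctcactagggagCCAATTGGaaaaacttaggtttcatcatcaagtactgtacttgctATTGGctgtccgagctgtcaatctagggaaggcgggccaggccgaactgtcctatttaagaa
Pspc1, chr14:56778319-56778568, minus strand: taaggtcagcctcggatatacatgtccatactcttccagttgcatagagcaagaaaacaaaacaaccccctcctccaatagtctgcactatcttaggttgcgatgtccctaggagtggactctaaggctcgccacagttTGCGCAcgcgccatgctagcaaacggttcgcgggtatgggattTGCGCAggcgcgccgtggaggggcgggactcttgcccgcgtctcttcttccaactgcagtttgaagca
Sfpq held 4 matches of CCAAT on either strand, 2 of them overlapping each other on opposite strands, and Pspc1 held 2 matches of TGCGCA. Of 27025 RefSeq promoters of 300 bases, 37.9% held a CCAAT and 8.06% a TGCGCA. Promoters of 7 of the 9 genes were matched by symbol, and CCAAT was found in 4 of them, those of Nono, Sfpq, Pspc1 and Taf15, and TGCGCA in 3, those of Nono, Pspc1 and Ewsr1. Of 4 further motifs searched on both strands, the GC box GGGCGG was found in 3 of the 7 (35.9% of all promoters), those of Pspc1, Taf15 and Tardbp, the CRE core TGACG in 2 (21.0%), the ETS core CCGGAAG in 0 (9.12%) and the TATA box TATAAA in 0 (14.2%). The 300 bases end 50 bases after the start, and a match there is a description of the letters only.

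**Figure D3:**
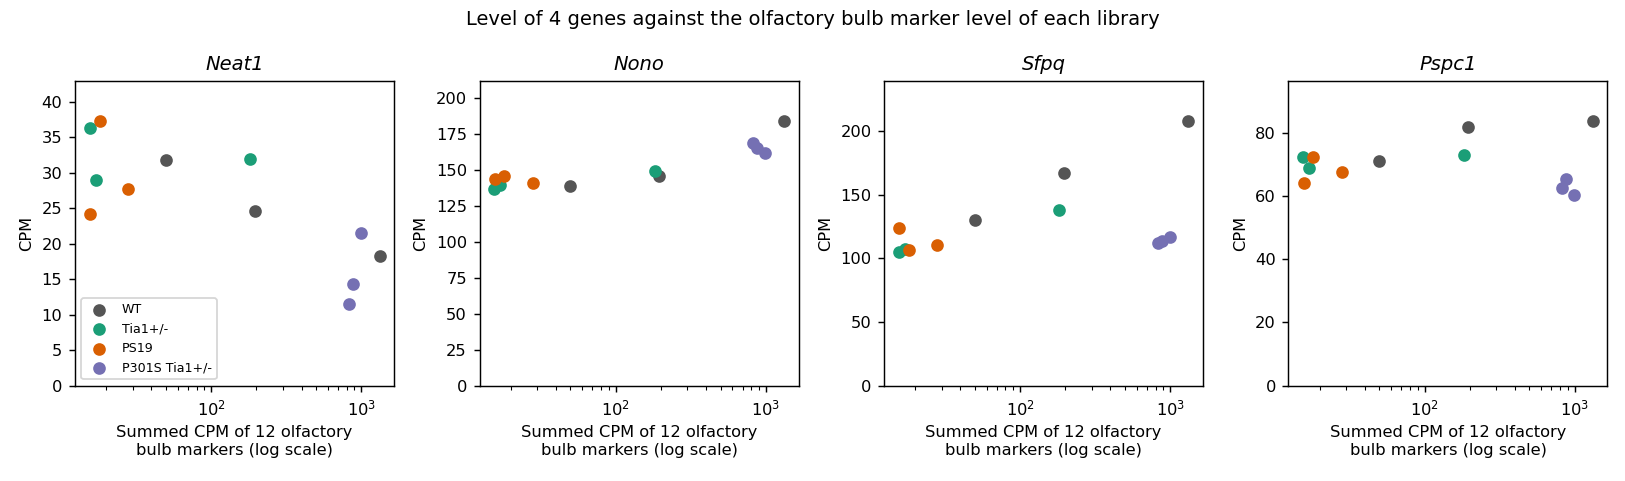
Level in CPM (y axis from 0) of Neat1, Nono, Sfpq and Pspc1 against the summed CPM of 12 olfactory bulb markers (x axis, log scale) in the 12 libraries, coloured by group. Neat1 was lower and Nono higher in the 4 libraries at 825 to 1323 CPM than in the 8 at 15.5 to 196 CPM, and Sfpq and Pspc1 overlapped between these sets.

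Among the FET genes, Ewsr1 was the steadiest of the 9, and Taf15 was among the least abundant. Ewsr1, at chr11:5069689-5099266 on the minus strand, shares 258 exon bases with Rhbdd3 on the opposite strand, and the counting is not stated to use strand. Its levels lay between 224 and 254 CPM in all 12 libraries, and its differences between groups were at most 0.10 in size on the log2 scale in the 6 comparisons plotted, the interaction being 0.10 ± 0.10. Taf15, at chr11:83473086-83506743 on the plus strand, had 17.9, 18.3 and 23.3 CPM in WT, 24.0, 18.7 and 24.7 CPM in Tia1+/-, 22.3, 22.3 and 14.3 CPM in PS19, and 13.5, 16.3 and 17.4 CPM in P301S Tia1+/-. The P301S Tia1+/- libraries were below all WT and Tia1+/- libraries and overlapped with PS19 replicate 3. The difference from Tia1+/- was -0.51 ± 0.19, with an edgeR adjusted p of 0.256 and a DESeq2 adjusted p of 0.162.

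Tardbp encodes TDP-43, which represses cryptic exons and keeps long neuronal transcripts intact. It lies at chr4:148612382-148627019 on the minus strand and shares 1817 exon bases with Masp2 on the opposite strand. Its level was 197, 188 and 175 CPM in WT, 168, 171 and 194 CPM in Tia1+/-, 189, 189 and 166 CPM in PS19, and 164, 158 and 163 CPM in P301S Tia1+/-. The P301S Tia1+/- libraries were below every other library. The difference was -0.21 ± 0.09 against WT, -0.17 ± 0.08 against PS19 and -0.13 ± 0.08 against Tia1+/-, with edgeR adjusted p of 0.227, 0.309 and 0.465. The 7 long-intron transcripts that depend on TDP-43 were mixed. Against WT, 4 were lower and 3 higher in PS19 (51% of all genes lower), and 5 lower and 2 higher in P301S Tia1+/- (46.6%). None passed an adjusted p of 0.05 in edgeR (at an unadjusted p under 0.05, 2 and 1 passed, against 16.3% and 18% of all genes). Between P301S Tia1+/- and PS19, Nlgn1, a synaptic adhesion gene, had the lowest p of these, with 159 CPM against 234 CPM (-0.56, edgeR adjusted p = 0.087). Only the P301S Tia1+/- libraries of this pair had a high bulb level. Against the 182 CPM of WT, Nlgn1 was higher in PS19 (0.36, edgeR adjusted p = 0.213).

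Matr3 encodes a nuclear matrix protein that binds RNA and interacts with TDP-43, and was the second most abundant of the 9 genes per kilobase. Its level was 1107, 1113 and 922 CPM in WT, 878, 875 and 876 CPM in Tia1+/-, 985, 981 and 947 CPM in PS19, and 984, 883 and 798 CPM in P301S Tia1+/-. The Tia1+/- libraries lay close together and below all WT libraries. The difference from WT was -0.11 ± 0.10 in PS19, -0.26 ± 0.10 in Tia1+/- and -0.24 ± 0.10 in P301S Tia1+/-, with edgeR adjusted p of 0.600, 0.193 and 0.236.

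By level per kilobase of exon, the 9 genes were ordered as Malat1 (1486 CPM), Matr3 (93.1), Ewsr1 (39.8), Nono (34.6), Sfpq (27.0), Tardbp (22.7), Pspc1 (12.3), Taf15 (6.65) and Neat1 (1.24). The last place of Neat1 rests on the length of its long transcript, and on that of its transcript of 3004 bases (8.57) it would stand above Taf15. Nono and Sfpq were nearly equal in WT, at 35.7 ± 5.55 and 35.5 ± 8.23 CPM per kilobase (SD, n = 3).

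The levels of 36 pairs of the 9 genes were correlated across the 12 libraries on the log2 scale, and p values from 100000 permutations were adjusted over the 36 pairs. Pearson's r passed an adjusted p of 0.05 for 5 pairs, of which 2, Neat1 with Taf15 and Pspc1 with Tardbp, also passed with Spearman's rho. Malat1 with Sfpq passed with rho alone (0.84, permutation p = 0.00138, adjusted 0.0248), while its r was 0.67 (permutation p = 0.0146, adjusted 0.0655), 0.67 without the 2 farthest libraries and 0.40 for deviations from group means, and in the 8 libraries with low bulb markers r was 0.63 and rho 0.88 (exact permutation p of rho 0.00724, adjusted 0.261). For Neat1 and Taf15, r was 0.82 (permutation p = 0.00077) and rho 0.90 (permutation p = 0.00022). r was 0.73 without the 2 libraries farthest from the median of Neat1, 0.73 for deviations from group means and 0.78 in the 8 libraries with low bulb markers (exact permutation p = 0.0196, adjusted 0.412). For Pspc1 and Tardbp, r was 0.76 (permutation p = 0.00343) and rho 0.80 (permutation p = 0.00289), and r was 0.66 without the 2 farthest libraries, 0.63 for deviations from group means and 0.49 in the 8 libraries (exact permutation p = 0.225). For Malat1 and Ewsr1, r was 0.76 (permutation p = 0.00436), rho 0.66 (permutation p = 0.0235), and r 0.75 without the 2 farthest libraries and 0.78 in the 8 libraries. Neat1 and Nono gave r = -0.79 (permutation p = 0.00277) and rho = -0.73 (permutation p = 0.00962), with -0.77 without the 2 farthest libraries, but Nono levels formed separate sets of libraries by bulb level, and within the 8 libraries with low bulb markers r was -0.20 (exact permutation p = 0.618). Sfpq and Pspc1 gave r = 0.73 (permutation p = 0.00686) and rho = 0.35 (permutation p = 0.266). Without the 2 farthest libraries, both WT, r was 0.07. It was 0.49 for deviations from group means and 0.62 in the 8 libraries with low bulb markers (exact permutation p = 0.108), so this relation depended on the libraries kept. The libraries share group means and tissue content, which these pairs do not separate.

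**Figure D4:**
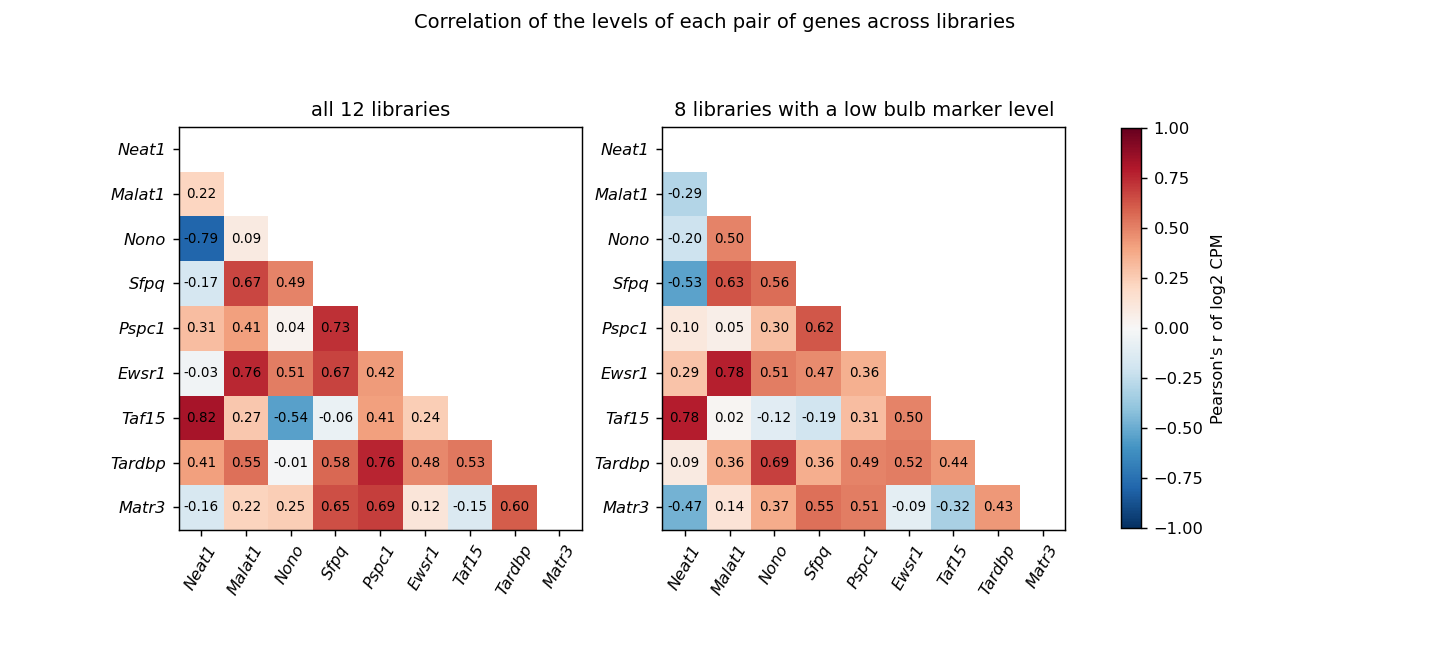
Pearson's r of log2 CPM (colour, from -1 to 1) for the 36 pairs of the 9 genes across all 12 libraries and across the 8 libraries with a low olfactory bulb marker level. Neat1 with Taf15 was at 0.82 and 0.78, whereas Neat1 with Nono was at -0.79 and -0.20.

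For each of the 9 genes, the gene with the highest r over the 12 libraries among 14321 other genes is given as a description. Sfpq went with Prpf38b, a pre-mRNA splicing factor, at r = 0.97 (rho 0.99). Tardbp went with Hnrnpa2b1, an RNA-binding protein linked to ALS, at 0.91 (rho 0.89). Malat1 went with Nktr at 0.93 (rho 0.94), Nono with Adk, adenosine kinase, at 0.98 (rho 0.85), Pspc1 with Brd7, a chromatin reader, at 0.95 (rho 0.94), and Matr3 with Pja1, a ubiquitin ligase, at 0.97 (rho 0.92). Neat1 went with Klf5, a transcription factor, at 0.90 (rho 0.96), Taf15 with Eif3b, a translation initiation factor subunit, at 0.89 (rho 0.88), and Ewsr1 with Myo9b, a myosin, at 0.92 (rho 0.91).

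Other proteins of paraspeckles and nuclear speckles were counted in the same comparisons, and the counts of this list and the next ones stand against shares of all genes below 0 of 51% in PS19, 49.3% in Tia1+/- and 46.6% in P301S Tia1+/- against WT, and shares at an unadjusted p under 0.05 of 16.3%, 19.1% and 18%. Of 30 other paraspeckle proteins, 22 were below 0 on the log2 scale in PS19 against WT (median -0.10), 22 in Tia1+/- against WT (median -0.14) and 22 in P301S Tia1+/- against WT (median -0.16). None passed an adjusted p of 0.05 in edgeR in PS19 (10 at an unadjusted p under 0.05, all lower). In Tia1+/-, Hnrnpf (-0.58), Cpsf6 (-0.53) and Srsf10 (-0.81) were lower and Zc3h6 (0.55) higher than in WT. Their edgeR adjusted p values were 0.0452, 0.0378, 0.0446 and 0.0452 (0.712% of all genes passed). Hnrnpf and Srsf10 had 159 ± 28.1 and 165 ± 36.9 CPM (SD) in WT. Other settings are not given for these genes, and Tia1 genotype and sex cannot be told apart in this comparison. Cpsf6, a subunit of a polyadenylation complex, was also lower in P301S Tia1+/- than in WT (-0.56, edgeR adjusted p = 0.0188, passed by 1.31% of all genes).

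Of 22 nuclear speckle proteins, 22 were below 0 in PS19 against WT (51% of all genes; median -0.23; 12 at an unadjusted p under 0.05, against 16.3% of all genes, and 0 at an adjusted p of 0.05 in edgeR), 18 in Tia1+/- against WT (median -0.27; 11 and 0) and 20 in P301S Tia1+/- against WT (median -0.29; 14 and 3). The 3 were Srsf11 (-0.41), Pnn (-0.49) and Ppig (-0.62), with edgeR adjusted p of 0.024, 0.0194 and 0.0105 (1.31% of all genes passed). Srsf3 and Srsf7, splicing factors of the SR family, had means of 204 and 129 CPM in PS19 and did not pass (edgeR adjusted p of 0.174 for each). In WT they had 287 ± 65.8 and 176 ± 29.2 CPM (SD). The 22 genes summed to 3920, 3627 and 3230 CPM in WT replicates 1 to 3, the first with a high bulb level. Their sum was 3063 to 3159 CPM in PS19, 2961 to 3268 CPM in Tia1+/- and 2975 to 3023 CPM in P301S Tia1+/-. These genes come from the same libraries and are not independent. The part of bulb level in their counts was not tested.

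Other RNA-binding proteins linked to ALS and FTD, noncoding RNAs and neighbouring genes showed no call in edgeR in any of the 7 comparisons. Of 10 such ALS and FTD genes, some of which are also on the paraspeckle list, 6 were below 0 in PS19 and 8 in P301S Tia1+/- against WT, with 1 and 3 at an unadjusted p under 0.05 (16.3% and 18% of all genes). Hnrnpa2b1 had 238 CPM in PS19 and 298 CPM in WT (-0.32, edgeR adjusted p = 0.274). Of 16 other nuclear or long noncoding RNAs, 9 were above 0 in PS19 against WT, and 13 were below 0 in P301S Tia1+/- against PS19 (48.5% of all genes), with 6 of these at an unadjusted p under 0.05 (19.3% of all genes in either direction). All 3 P301S Tia1+/- libraries and no PS19 library had a high bulb level, whose part in these counts was not tested. Miat had 83.4 CPM in P301S Tia1+/- against 197 CPM in PS19 (-1.24, edgeR adjusted p = 0.225). Of 10 genes around the Neat1 and Malat1 locus, 8 were above 0 in P301S Tia1+/- against PS19, the direction opposite to that of Neat1 in the same libraries, with 4 at an unadjusted p under 0.05 (19.3% of all genes). Slc25a45 had 4.94 CPM in P301S Tia1+/- and 2.36 CPM in PS19 (1.06, edgeR adjusted p = 0.140).

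**Figure D5:**
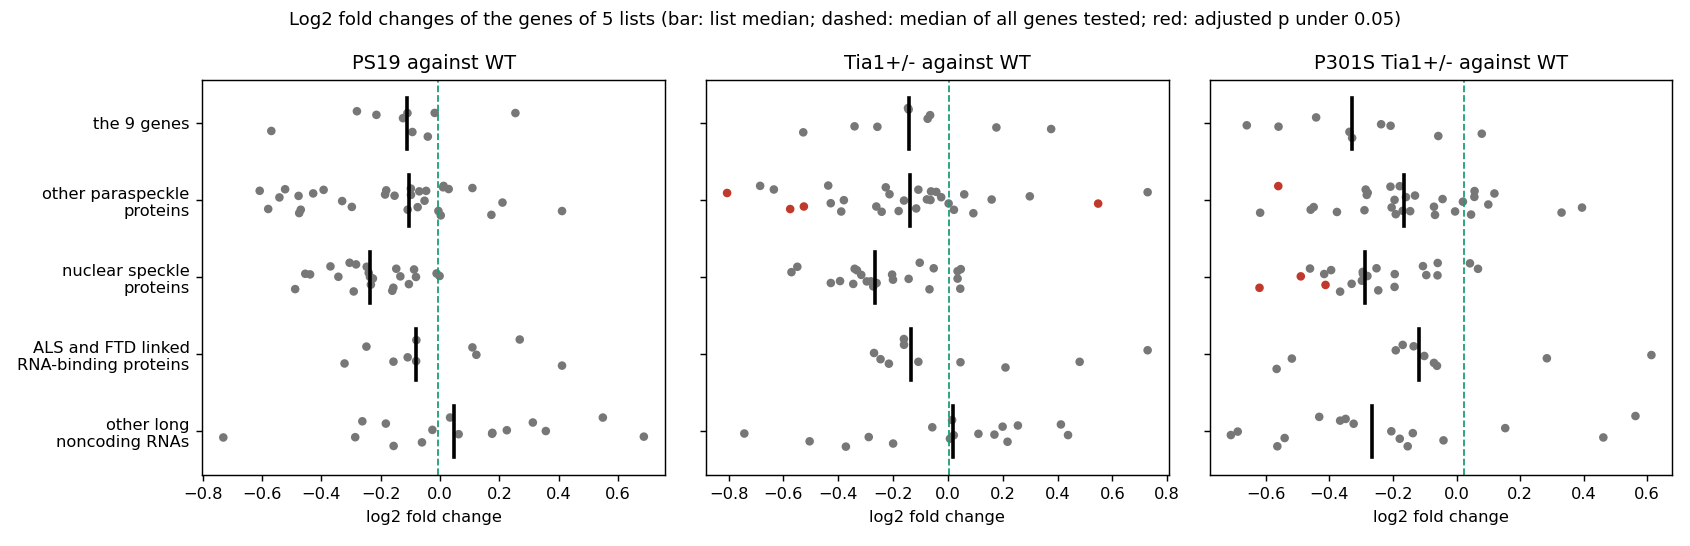
Log2 fold change (x axis) of each gene of 5 lists in PS19, Tia1+/- and P301S Tia1+/- against WT, with the list median as a bar, the median of all 15440 genes as a dashed line and genes of an edgeR adjusted p under 0.05 in red. The medians of the 9 genes were -0.11, -0.14 and -0.33, and those of the nuclear speckle proteins -0.23, -0.27 and -0.29.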

How the data were processed

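Total RNA from mouse cortex was made into stranded paired-end libraries, 3 for each of 4 groups at 9 months, and sequenced. Reads were mapped by the authors with TopHat (TopHat2 2.0.6 in the submitters' processing notes) on Bowtie against mm10, and raw counts per gene from featureCounts were deposited. The annotation and strand setting are not given in the sources used here. Counts were whole numbers and replicates differed by more than sampling noise. The labels do not say more of how replicates were taken than that each is a separate sample, so p values measure the spread between these samples.

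The counts of all 12 libraries were scaled by TMM, filtered with filterByExpr and tested in edgeR 4.0.16 (R 4.3.3) with a mean for each group, with Benjamini-Hochberg adjustment over all 15440 genes. An exact test of 3 against 3 libraries cannot go below 0.10, so none was used. Correlations used log2(CPM + 0.5). The edgeR step was tested on simulated data. DESeq2 1.42.0 and other settings were alternatives. Replicate numbers were checked for pairing in 18 pairs of libraries, whose residuals correlated from -0.54 to 0.35. They were not used as pairs across groups. Between the Tia1+/- and P301S Tia1+/- groups each of the 3 values exceeded 0.1 (0.123, 0.134 and 0.240), so the replicate block was also fitted in those libraries, after the data were seen. The 9 genes and the lists were chosen with earlier results of these data known. Named genes are the 9 genes, label checks, from each list those past the threshold or else the 3 with the largest differences in PS19 and Tia1+/- against WT, and the genes most like each of the 9. Positions are from GENCODE M21 and promoters from RefSeq. Not every gene of the lists is reported here by name.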

Additional observations from a re-analysis of the deposited data

Results flagged for a closer look

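Neat1 was flagged because the difference between P301S Tia1+/- and PS19 was not that between Tia1+/- and WT by the interaction test of DESeq2, with -1.30 on the log2 scale (adjusted p = 0.0161). In edgeR the value was -1.29 with an adjusted p of 0.0888, and when the bulb marker level entered as a covariate it was -0.47 (edgeR adjusted p = 0.695). Both differences compare libraries with Xist against libraries without it. No explanation was tested.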

How the results depend on the processing

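Of 20 single-gene differences with an unadjusted p under 0.05, 3 changed sign under an alternative, all when the bulb marker level entered as a covariate: Nono in P301S Tia1+/- against Tia1+/- (-0.10), and the interaction of Nono (-0.24) and of Sfpq (-0.59). Calls among the 9 genes numbered 0 in every comparison of the fit reported. Shares in parentheses are of all genes called in the same fit. DESeq2 called 1 in PS19 against WT, 1 in Tia1+/- against WT, 1 in P301S Tia1+/- against PS19, 1 against Tia1+/-, 2 against WT and 1 for the interaction (2.53% to 7.65%). Only the libraries compared gave 2 calls, Neat1 and Nono, in P301S Tia1+/- against PS19 (20.1%). The bulb covariate gave 1 call in P301S Tia1+/- against PS19 (6.65%), 1 against Tia1+/- (7.4%), 3 against WT, which were Sfpq, Pspc1 and Tardbp (10%), and 1 in the average over Tia1 genotypes (0.622%), and medians of the 9 genes of 0.0032 in Tia1+/- against WT, -0.31 in P301S Tia1+/- against PS19, -0.35 against Tia1+/- and -0.32 for the interaction. The cause was not tested. The size factors of DESeq2 in edgeR and both filters on low counts changed no call. With the replicate block there were 0 calls in each comparison, and in the added fit of the Tia1+/- and P301S Tia1+/- libraries Neat1 was at -1.08 (edgeR adjusted p = 0.0811), so the pairing changed no call.

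Leaving out libraries gave 0 calls in PS19 against WT, 0 to 1 in Tia1+/- against WT, 0 to 2 in P301S Tia1+/- against PS19, 0 to 2 against Tia1+/-, 0 to 5 against WT, 0 to 2 for the interaction and 0 in the average. The 5 (Neat1, Malat1, Nono, Sfpq and Pspc1) came without both WT replicate 1 and Tia1+/- replicate 3, an alternative chosen after seeing the data, in which 25.8% of all genes were called, and the counts of 2 came in that fit too (22.9%, 23.4% and 13.5%). Without WT replicate 1 alone Neat1 was called against PS19 (10.3%) and against Tia1+/- (6.11%). Without WT replicate 3 alone Sfpq was called in Tia1+/- against WT (3.16%), Sfpq and Pspc1 in P301S Tia1+/- against WT (1.48%) and Neat1 for the interaction (6.59%). Medians of the 9 genes ran from -0.18 to -0.059, -0.21 to -0.022, -0.17 to -0.09, -0.19 to 0.016, -0.36 to -0.27, 0.012 to 0.12 and -0.22 to -0.074 in the same order. Without WT replicate 1 the interaction was 0.34 for Sfpq and 0.20 for Nono, against 0.54 and 0.35. Correlations of deviations from group means were -0.59 for Neat1 with Nono and 0.49 for Sfpq with Pspc1, and in the 8 libraries with low bulb markers -0.20 for Neat1 with Nono and 0.49 for Pspc1 with Tardbp. With 3 libraries a group, differences such as that of Ewsr1 are within the spread.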
